A study of Mus musculus with 6 samples.

Results

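The 44 genes described here encode the enzymes that turn pyruvate and the branched-chain amino acids leucine, isoleucine and valine into carbon dioxide and reducing power in mitochondria, together with the kinases and phosphatases that control their entry steps. They were taken by symbol from a list of the pyruvate dehydrogenase complex, the tricarboxylic acid (TCA) cycle, the malic enzymes, the malate-aspartate shuttle and branched-chain amino acid breakdown, and all 44 were found among the 54232 genes of the count table. The study compared tibialis anterior (TA) muscle, a fast limb muscle of the lower leg, between C57BL6 mice of 1 month with a deletion of exon 51 of Dmd (dEx51, n = 3 libraries, numbered 4 to 6) and C57BL6 mice of the same age that were wild type (WT, n = 3 libraries, numbered 1 to 3). Dmd encodes dystrophin, the protein that anchors the fibre's inner actin network to the matrix outside it, and its loss causes Duchenne muscular dystrophy in people. Stranded mRNA libraries were made from whole muscle RNA, and reads were counted per gene. The labels call the libraries biological replicates and do not say whether the mice shared litters, so p-values measure the spread between these libraries.

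In the mitochondrial matrix the pyruvate dehydrogenase complex converts pyruvate from glycolysis into acetyl-CoA, which citrate synthase joins to oxaloacetate to start the TCA cycle. Kinases switch the complex off by phosphorylating its first subunit, and phosphatases switch it on again. Branched-chain amino acids are first transaminated and then decarboxylated by a related complex, the branched-chain ketoacid dehydrogenase, and muscle is a main site of the transamination. The leucine branch ends in acetyl-CoA and acetoacetate, whereas valine and part of isoleucine enter the cycle as succinyl-CoA through the propionyl-CoA branch.

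Libraries held 15681945 to 21020353 counted reads. Dmd itself was at 47.7, 46.4 and 51.1 CPM in dEx51 4, 5 and 6, against 235, 249 and 266 CPM in WT 1, 2 and 3 (CPM are counts scaled to a common library total, here after TMM scaling, which sets libraries against each other through the bulk of their genes), and the log2 fold change was -2.37 with an SE of 0.0944 (edgeR adjusted p = 2.77e-05). Fast fibre genes, which mark TA muscle, were abundant in both groups: the 9 listed (Myh4, Myh1, Actn3, Ckm and others) summed to 78951 to 108330.0 CPM in dEx51 and 121565 to 124603 CPM in WT. The fast fibre list had a median log2 fold change of -0.45 (-0.12 with library size as the only scaling). In edgeR 0 of its 9 genes passed the test, 3 had an unadjusted p under 0.05, DESeq2 called 4 and limma-voom 2 lower, and without dEx51 6 edgeR called 8 lower. Over all genes tested edgeR called 11.9% lower and 16.1% higher, and 14.6% lower without dEx51 6. Macrophage markers moved with genotype: 11 of 12 were higher in dEx51, and they summed to 895 to 1901 CPM in dEx51 and 93.8 to 202 CPM in WT. Of the 7 fibroblast markers 5 were higher, with sums of 4440.0 to 5096 CPM in dEx51 and 1827 to 3169 CPM in WT. Of the 5 neutrophil genes, Ly6g and Mpo were at 0 in both groups, and the 1 tested, Csf3r, was higher, with sums of 2.60 to 8.49 CPM in dEx51 and 0.164 to 1.29 CPM in WT. Regenerating fibre genes were higher in 6 of 7, with sums of 845 to 1237 CPM in dEx51 and 986 to 1036 CPM in WT, and proliferation genes in 5 of 6, with sums of 35.6 to 144 CPM in dEx51 and 11.6 to 16.0 CPM in WT. Most of the regenerating fibre sums was Myh8, the gene of that list not called (mean 744 CPM in dEx51 and 977 CPM in WT, edgeR log2 fold change -0.39). Satellite cell genes were higher in 2 of 5 (67.5 to 114 CPM in dEx51 and 30.6 to 33.4 CPM in WT), lymphocyte genes in 2 of 2 tested (2.49 to 3.53 CPM in dEx51 and 0.830 to 1.86 CPM in WT) and slow fibre genes in 4 of 7, with 1 lower (219 to 259 CPM in dEx51 and 154 to 247 CPM in WT). Endothelial genes were lower in 4 of 6 (315 to 394 CPM in dEx51 and 449.8 to 533 CPM in WT), Schwann genes in 4 of 5 (31.1 to 36.0 CPM in dEx51 and 58.5 to 71.3 CPM in WT) and pericyte and smooth muscle genes in 3 of 5 (3255 to 3451 CPM in dEx51 and 3392 to 3809.7 CPM in WT). Most of the pericyte and smooth muscle sums was Des, which was not called (mean 2649 CPM in dEx51 and 2467 CPM in WT), so they say little of the 3 lower genes. Erythroid genes were lower in 3 of 5 (59.9 to 98.6 CPM in dEx51 and 105 to 175 CPM in WT), and adipocyte sums were 162 to 273 CPM in dEx51 and 162 to 263 CPM in WT. With library size as the only scaling the endothelial and erythroid calls ended, and 2 pericyte and smooth muscle genes were lower and 2 higher. Transcripts of the mitochondrial genome took 14.8, 13.7 and 13.4% of counted reads in dEx51 4, 5 and 6, against 19.4, 21.05 and 20.5% in WT 1, 2 and 3. In whole muscle, fewer cells of a type and less RNA per cell cannot be told apart. The part of these shifts in the results on the 44 genes was not tested.

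Transcripts of the pathway were lower in dEx51 muscle across almost all of its steps. Of the 44 genes, all of which passed the filter on low counts, 38 were lower in dEx51 and 1, Me2, was higher at an edgeR adjusted p under 0.05, against 11.9% lower, 16.1% higher and 28.0% in either direction among the 14335 genes tested. The remaining genes, Dlst, Sucla2, Pcx, Mdh1 and Bcat1, did not pass the test. The median log2 fold change of the 44 was -0.52, against -0.01 over all genes tested, with a range of -0.94 (Idh2) to 1.37 (Me2). The genes that were lower stood at 52.1% (Idh2) to 81.3% (Glud1) of the WT mean. In 41 genes every dEx51 library lay under every WT library, which held for 21.7% of all genes tested (45.5% in either direction), and the libraries of the groups overlapped for Mdh1 and Bcat1. For single genes, here and below, overlap was judged on CPM after TMM scaling and not with the other scalings.

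The size of these differences depended on how libraries were scaled. With library size as the only scaling, 7 of the 44 genes were lower and 1 was higher, and their median was -0.17 while that of all genes was 0.34. Over all genes that scaling called 334 lower and 5394 higher, against 1701 lower and 2309 higher with TMM. The distance between the median of the 44 genes and that of all genes was -0.50 with both scalings, so the values below are relative to the bulk of expressed genes. Pdk2, Pdpr, Me1, Me3, Bckdhb, Mccc2 and Pcca were lower, and Me2 was higher, with each of the 5 scalings tried, which were TMM, TMM without the transcripts of the mitochondrial genome, DESeq2 size factors, upper quartile scaling and library size alone. Taken as a share of all counted reads, the 44 genes made up 1.10, 1.02 and 0.964% in dEx51 4, 5 and 6, against 1.10, 1.202 and 1.13% in WT 1, 2 and 3, where dEx51 4 and WT 1 were equal to 3 digits. As a share of reads from nuclear genes, they made up 1.29, 1.18 and 1.11% in dEx51, against 1.37, 1.52 and 1.43% in WT, with no overlap.

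The libraries did not weigh equally in these calls. Without WT 2 the count of lower genes dropped to 19 (median -0.49), with 4.49% of all genes lower, and without dEx51 5 to 23 (median -0.47), with 5.21% of all genes lower. The other 4 omissions left 31 to 39, with 6.8 to 14.6% of all genes lower, and the 39 came without dEx51 6, where that share was 14.6%. WT 2 held the highest WT value in 33 of the 38 genes that were lower, and dEx51 6 held the highest dEx51 value in 23 of them. Relative to the WT mean, the median of the 44 genes was -0.49, -0.56 and -0.45 on the log2 scale in dEx51 4, 5 and 6, and -0.06, 0.08 and -0.02 in WT 1, 2 and 3, so each dEx51 library lay below each WT library.

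**Figure D1:**
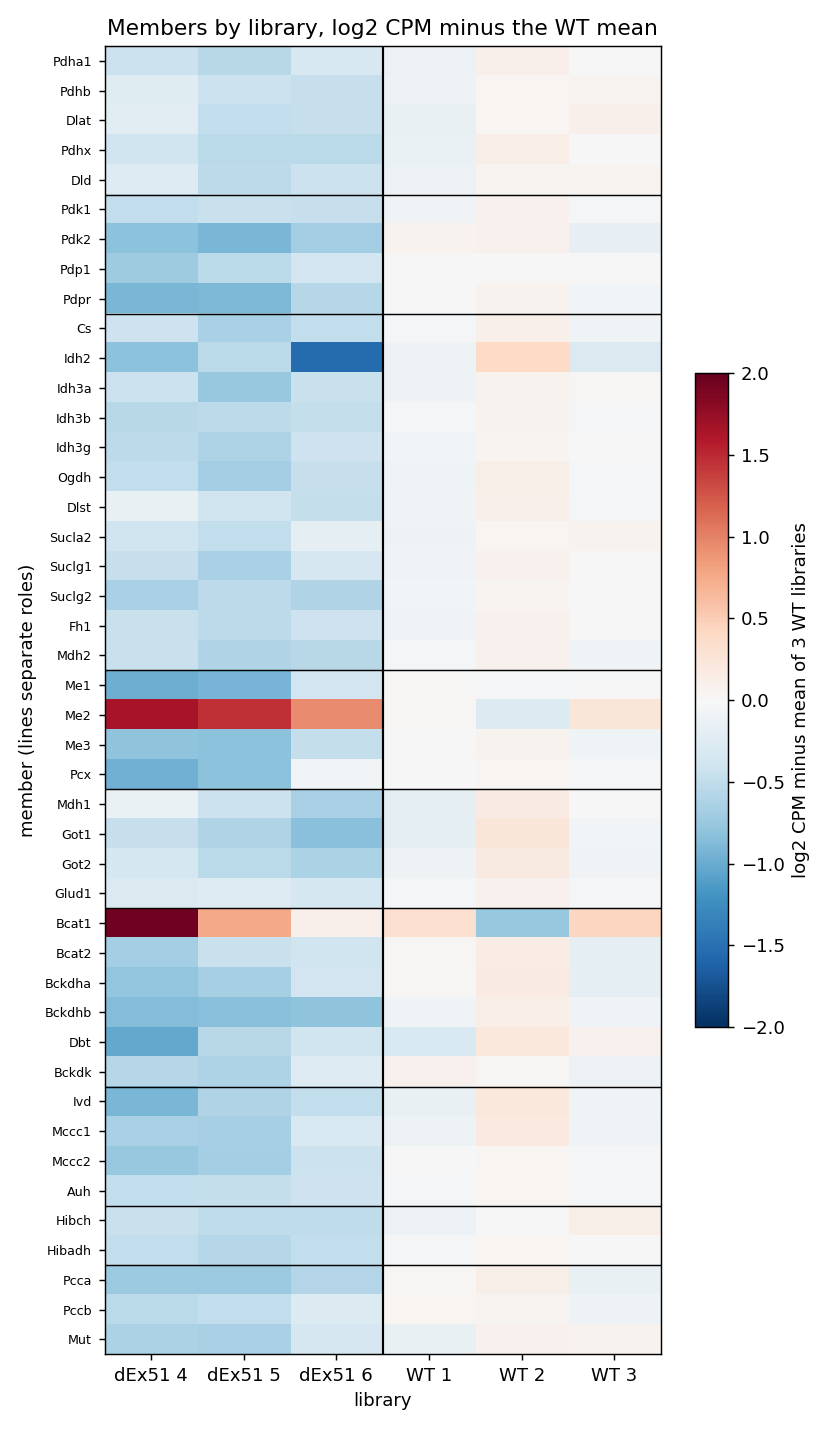
Heat map of the 44 genes (rows, grouped by role) in the 3 dEx51 and the 3 WT libraries (columns), as log2 CPM after TMM scaling minus the mean of the WT libraries. The dEx51 columns are below 0 for nearly all rows, with Me2 and Bcat1 as the exceptions. With library size as the only scaling 40 of the 44 genes keep a log2 fold change below 0, and 7 pass the test as lower.

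All 5 subunits of the pyruvate dehydrogenase complex were lower in dEx51, with a median log2 fold change of -0.40 (-0.05 with library size as the only scaling). Pdhx, the protein that anchors the E3 subunit to the core, was at 85.0, 77.6 and 77.5 CPM in dEx51 4, 5 and 6, against 102, 123 and 112 CPM in WT 1, 2 and 3 (edgeR log2 fold change -0.49, SE 0.0972, adjusted p = 0.00879). Pdha1, which encodes the E1 alpha subunit that the kinases phosphorylate, was at 600.2, 554 and 654 CPM in dEx51 4, 5 and 6, against 751, 874 and 818 CPM in WT 1, 2 and 3 (edgeR log2 fold change -0.43, SE 0.112, adjusted p = 0.0240). In both genes the lowest WT library, WT 1, stood above the highest dEx51 library. Pdhb, the E1 beta subunit, was at 221, 193 and 189 CPM in dEx51 4, 5 and 6, against 243, 268 and 270.4 CPM in WT 1, 2 and 3 (edgeR log2 fold change -0.38, SE 0.1003, adjusted p = 0.0267). Dld, the E3 subunit that several dehydrogenase complexes share, was at 387, 325 and 346 CPM in dEx51 4, 5 and 6, against 429.7, 483 and 482 CPM in WT 1, 2 and 3 (edgeR log2 fold change -0.40, SE 0.108, adjusted p = 0.0276). Here dEx51 4 was the dEx51 library nearest to the WT range, and the groups again did not overlap after TMM scaling. Against library size alone they did: dEx51 4 held 9057 Dld reads of 20105817, and WT 1 held 7765 of 20136164. Dlat, the acetyltransferase of the core, stood at 76.5% of its WT mean (log2 fold change -0.39). With library size as the only scaling the 5 subunits lay between -0.14 and -0.02 and none was called. The call was also lost without WT 2, WT 3, dEx51 4 or dEx51 5 for Pdha1 (log2 fold change -0.44 to -0.37). The same held without WT 2, WT 3 or dEx51 5 for Pdhb (-0.36 to -0.34) and Dld (-0.38 to -0.33). For Dlat (-0.38 to -0.32) it ended without WT 2, WT 3, dEx51 5 or dEx51 6.

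The regulators of the complex were also lower, 4 of 4, with a median log2 fold change of -0.66, and they include enzymes of opposite action. Pdk2, a kinase that inactivates the complex, was at 283, 265 and 309 CPM in dEx51 4, 5 and 6, against 525, 533 and 446 CPM in WT 1, 2 and 3 (edgeR log2 fold change -0.81, SE 0.112, adjusted p = 0.00241). Pdpr, the regulatory subunit of the phosphatase that reactivates it, was at 134, 136 and 169.6 CPM in dEx51 4, 5 and 6, against 249.9, 266 and 242 CPM in WT 1, 2 and 3 (edgeR log2 fold change -0.78, SE 0.115, adjusted p = 0.00292). All dEx51 libraries of both genes lay far under the lowest WT library, and both calls held with all 5 scalings and with each library left out. Pdk1, another of the kinases, was at 86.6, 88.9 and 88.1 CPM in dEx51 4, 5 and 6, against 116, 129 and 119.5 CPM in WT 1, 2 and 3 (edgeR log2 fold change -0.47, SE 0.0816, adjusted p = 0.00574). Pdp1, the catalytic subunit of the phosphatase, was at 95.4, 107 and 118 CPM in dEx51 4, 5 and 6, against 156, 156 and 154 CPM in WT 1, 2 and 3 (edgeR log2 fold change -0.54, SE 0.0994, adjusted p = 0.00689). The dEx51 values of Pdk1 and the WT values of Pdp1 were nearly equal between libraries, and neither gene's groups overlapped. Their calls ended with library size as the only scaling, at log2 fold changes of -0.12 and -0.19.

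Pdk3 and Pdk4 are the remaining kinases of the family. Pdk4, the kinase raised by fasting and fat use, was at 535, 808 and 369.8 CPM in dEx51 4, 5 and 6, against 394, 895 and 1074 CPM in WT 1, 2 and 3, so libraries of both groups spread widely and overlapped, and it did not pass the test (edgeR log2 fold change -0.46, SE 0.385, adjusted p = 0.403). Pdk3, a kinase scarce in WT muscle, was higher in dEx51 at 5.43, 6.08 and 4.88 CPM in dEx51 4, 5 and 6, against 1.33, 1.75 and 1.79 CPM in WT 1, 2 and 3 (edgeR log2 fold change 1.75, SE 0.201, adjusted p = 0.00124). Each of the dEx51 libraries stood above the WT libraries for Pdk3, and the call held in all 19 alternatives tried. The values given for Pdk4, Idh2, Cs, Dbt and Bcat1, and below for Klf15, were chosen for mention after they were seen.

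Of the 12 TCA cycle genes 10 were lower in dEx51, 0 were higher, and the median log2 fold change was -0.52. Suclg2, the subunit that makes succinyl-CoA ligase specific for GTP, was at 40.1, 44.0 and 41.6 CPM in dEx51 4, 5 and 6, against 61.0, 65.8 and 63.0 CPM in WT 1, 2 and 3 (edgeR log2 fold change -0.59, SE 0.0814, adjusted p = 0.00233). Idh3b and Idh3g, regulatory subunits of the NAD-dependent isocitrate dehydrogenase, were close to each other in size: Idh3b was at 316, 324 and 336 CPM in the dEx51 libraries, against 455, 489 and 453 CPM in the WT libraries (edgeR log2 fold change -0.52, SE 0.0903, adjusted p = 0.00573). Idh3g was at 215, 203 and 234 CPM in the dEx51 libraries, against 298, 322 and 313 CPM in the WT libraries (edgeR log2 fold change -0.52, SE 0.0947, adjusted p = 0.00682). In these 3 genes the libraries of a group lay within a narrow band, and the bands were well apart. Mdh2, the malate dehydrogenase that closes the cycle, was at 562, 507 and 519 CPM in the dEx51 libraries, against 758, 813 and 731 CPM in the WT libraries (edgeR log2 fold change -0.54, SE 0.101, adjusted p = 0.00749). Cs, citrate synthase, which is often used as a measure of mitochondrial content, averaged 753 ± 60.4 CPM in dEx51 and 1077 ± 63.7 CPM in WT (SD, n = 3 each) (edgeR log2 fold change -0.52, SE 0.111, adjusted p = 0.0119).

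Idh2, the NADP-dependent isocitrate dehydrogenase of mitochondria, had the most negative log2 fold change of the 44 genes but also a wide spread. It was at 92.0, 111 and 55.9 CPM in dEx51 4, 5 and 6, against 151, 215 and 132 CPM in WT 1, 2 and 3 (edgeR log2 fold change -0.94, SE 0.265, adjusted p = 0.0320). The dEx51 6 value lay below all others, and WT 2 stood above the other WT libraries. Idh3a, the catalytic subunit of the NAD-dependent enzyme, Ogdh, the first subunit of the 2-oxoglutarate dehydrogenase complex, Suclg1, the subunit common to both succinyl-CoA ligases, and Fh1, fumarase, were lower in dEx51, with log2 fold changes of -0.54 (Ogdh) to -0.46 (Fh1). Dlst, the core subunit of the 2-oxoglutarate dehydrogenase complex, did not pass the test (edgeR log2 fold change -0.34, SE 0.115, adjusted p = 0.0623), and neither did Sucla2, the ligase subunit specific for ATP (edgeR log2 fold change -0.35, SE 0.116, adjusted p = 0.0540). Both had every dEx51 library under every WT library, and Dlst passed without dEx51 4 (-0.44) and Sucla2 without dEx51 6 (-0.45). Calls for the TCA cycle genes ended with library size as the only scaling, where log2 fold changes ran from -0.56 to 0.02 and Dlst turned to the positive side. Calls in the cycle also ended without WT 2 for Cs (log2 fold change -0.48) and Ogdh (-0.49). The same held without WT 1, WT 2 or dEx51 4 for Idh2 (-1.01 to -0.72). For Idh3a (-0.54 to -0.43) it ended without WT 2, WT 3 or dEx51 5. For Suclg1 (-0.44 to -0.39) it ended without WT 2 or dEx51 5.

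The malic enzymes, which convert malate to pyruvate, split by isoform. Me1, the cytosolic isoform that yields NADPH, was at 134, 139 and 204 CPM in dEx51 4, 5 and 6, against 269.9, 258 and 266 CPM in WT 1, 2 and 3 (edgeR log2 fold change -0.74, SE 0.161, adjusted p = 0.0128). Me3, a mitochondrial isoform that uses NADP, was at 47.5, 47.1 and 59.7 CPM in dEx51 4, 5 and 6, against 83.3, 87.0 and 78.4 CPM in WT 1, 2 and 3 (edgeR log2 fold change -0.69, SE 0.113, adjusted p = 0.00453). In both genes dEx51 6 was the dEx51 library nearest to WT. Me2, the mitochondrial isoform that uses mainly NAD, was higher in dEx51, at 14.9, 13.1 and 9.19 CPM in dEx51 4, 5 and 6, against 4.87, 3.95 and 5.66 CPM in WT 1, 2 and 3 (edgeR log2 fold change 1.37, SE 0.215, adjusted p = 0.00379). It stood at 257% of its WT mean, the lowest dEx51 value, that of dEx51 6, was above the highest WT value, and the call held in all 19 alternatives. The dEx51 libraries of higher Me2 level, dEx51 4 and 5, were also those of higher macrophage marker sums (1194 and 1901 CPM, against 895 CPM in dEx51 6). Between dEx51 4 and 5 the order of Me2 and of these sums was opposite. Proliferation, satellite cell, neutrophil, endothelial, pericyte, erythroid and adipocyte sums were also lowest in dEx51 6. Fast fibre, regenerating fibre, lymphocyte and Schwann sums were highest there. The part of any of these cells in the Me2 result was not tested. Pcx, pyruvate carboxylase, which makes oxaloacetate from pyruvate, was at 30.1, 33.4 and 56.9 CPM in dEx51 4, 5 and 6, against 58.7, 60.2 and 57.7 CPM in WT 1, 2 and 3 and did not pass the test (edgeR log2 fold change -0.56, SE 0.218, adjusted p = 0.0931). Its dEx51 6 value was close to the WT libraries, while dEx51 4 and 5 were far below them. Without dEx51 6 the log2 fold change of Pcx was -0.89 and passed the test.

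The malate-aspartate shuttle carries reducing power from the cytosol into mitochondria, and 3 of its 4 listed genes, counting glutamate dehydrogenase with them, were lower in dEx51. Got1, the cytosolic aspartate transaminase, was at 404, 370.0 and 314 CPM in dEx51 4, 5 and 6, against 490.5, 659 and 539.9 CPM in WT 1, 2 and 3 (edgeR log2 fold change -0.63, SE 0.145, adjusted p = 0.0152). Got2, its mitochondrial partner, was at 266, 233 and 219 CPM in dEx51 4, 5 and 6, against 316, 386 and 323 CPM in WT 1, 2 and 3 (edgeR log2 fold change -0.51, SE 0.120, adjusted p = 0.0164). In both genes dEx51 6 was the lowest library and WT 2 the highest. Glud1, glutamate dehydrogenase, was at 143, 147 and 138 CPM in dEx51 4, 5 and 6, against 171, 185 and 171 CPM in WT 1, 2 and 3 (edgeR log2 fold change -0.30, SE 0.0844, adjusted p = 0.0323), the smallest difference among the genes that were lower. Mdh1, the cytosolic malate dehydrogenase, was at 654, 529 and 455 CPM in dEx51 4, 5 and 6, against 630.0, 802 and 718 CPM in WT 1, 2 and 3 and did not pass the test (edgeR log2 fold change -0.39, SE 0.156, adjusted p = 0.0972), with the dEx51 4 value above that of WT 1. Without dEx51 4 Mdh1 passed the test, at -0.54. With library size as the only scaling none of the 4 was called, and their log2 fold changes lay between -0.27 and 0.05, that of Glud1 being positive. Calls in the shuttle ended without WT 2 or dEx51 5 for Got1 (log2 fold change -0.64 to -0.51) and Got2 (-0.48 to -0.42). The same held without WT 1, WT 2, WT 3, dEx51 4 or dEx51 5 for Glud1 (-0.33 to -0.27).

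The first steps of branched-chain amino acid breakdown were lower in dEx51 in 5 of 6 genes, with a median log2 fold change of -0.56. Bckdhb, the E1 beta subunit of the branched-chain ketoacid dehydrogenase, was at 13.1, 13.3 and 13.6 CPM in dEx51 4, 5 and 6, against 22.7, 26.2 and 22.8 CPM in WT 1, 2 and 3 (edgeR log2 fold change -0.84, SE 0.0986, adjusted p = 0.00130). The dEx51 values differed by less than 1 CPM, all WT values were well above them, and the call held with all 5 scalings and each library left out. Bckdha, the E1 alpha subunit, was at 12.9, 14.04 and 17.1 CPM in dEx51 4, 5 and 6, against 22.7, 24.99 and 19.4 CPM in WT 1, 2 and 3 (edgeR log2 fold change -0.61, SE 0.142, adjusted p = 0.0155). Its exons overlap those of B3gnt8 on the opposite strand over 61.7% of their bases, and since no source used here gives the strand setting of the counting, reads of the pair could be mixed. B3gnt8 had 8.90% as many counts as Bckdha. Bcat2, the mitochondrial transaminase of muscle, was at 21.8, 25.7 and 26.4 CPM in dEx51 4, 5 and 6, against 35.6, 38.7 and 30.8 CPM in WT 1, 2 and 3 (edgeR log2 fold change -0.51, SE 0.119, adjusted p = 0.0162). Bckdk, the kinase that inactivates the dehydrogenase, was at 105, 100.2 and 129 CPM in dEx51 4, 5 and 6, against 164, 158 and 143 CPM in WT 1, 2 and 3 (edgeR log2 fold change -0.48, SE 0.118, adjusted p = 0.0202). For Bcat2 the WT 3 library, and for Bckdk the dEx51 6 library, lay nearest to the other group. Dbt, the core subunit, stood at 63.6% of its WT mean (edgeR log2 fold change -0.65, SE 0.184, adjusted p = 0.0320).

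Bcat1, the cytosolic transaminase, was near the detection limit, with 91, 39 and 21 reads in dEx51 4, 5 and 6, against 23, 11 and 19 reads in WT 1, 2 and 3. The groups overlapped, dEx51 4 stood above the others, and the gene did not pass the test (edgeR log2 fold change 1.07, SE 0.515, adjusted p = 0.154). For the other genes of this step, library size as the only scaling gave log2 fold changes of -0.49 (Bckdhb, called) to -0.13, and Bckdhb was the one gene of the 5 still called. Calls at this step ended without WT 2 or dEx51 4 for Bcat2 (log2 fold change -0.44 to -0.43). The same held without WT 2, dEx51 4 or dEx51 5 for Bckdha (-0.57 to -0.53). For Dbt (-0.69 to -0.49) it ended without WT 2, WT 3, dEx51 4 or dEx51 5. For Bckdk (-0.47 to -0.40) it ended without WT 1, WT 2, dEx51 4 or dEx51 5.

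All 4 genes of the leucine branch were lower in dEx51, with a median log2 fold change of -0.58. Ivd, isovaleryl-CoA dehydrogenase, was at 63.5, 78.9 and 84.7 CPM in dEx51 4, 5 and 6, against 108, 139 and 113 CPM in WT 1, 2 and 3 (edgeR log2 fold change -0.66, SE 0.140, adjusted p = 0.0111). Mccc1 and Mccc2 encode the alpha and beta subunits of methylcrotonyl-CoA carboxylase, the biotin enzyme of this branch. Mccc2 was at 21.4, 22.5 and 26.8 CPM in dEx51 4, 5 and 6, against 36.1, 37.1 and 35.0 CPM in WT 1, 2 and 3 (edgeR log2 fold change -0.61, SE 0.106, adjusted p = 0.00551). Mccc1 was at 23.2, 22.9 and 29.4 CPM in dEx51 4, 5 and 6, against 34.0, 41.5 and 34.2 CPM in WT 1, 2 and 3 (edgeR log2 fold change -0.54, SE 0.132, adjusted p = 0.0191). For both subunits dEx51 6 was the highest dEx51 library and WT 2 the highest WT library, and the groups did not overlap. Auh, the hydratase that follows the carboxylase, was at 28.7, 29.0 and 30.2 CPM in dEx51 4, 5 and 6, against 39.7, 41.6 and 39.7 CPM in WT 1, 2 and 3 (edgeR log2 fold change -0.46, SE 0.0791, adjusted p = 0.00538), with less spread within either group. Mccc2 kept its call with library size as the only scaling (log2 fold change -0.27), whereas Ivd, Mccc1 and Auh did not. The call was lost without WT 2, dEx51 4 or dEx51 5 for Mccc1 (log2 fold change -0.48 to -0.45).

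The valine and propionyl-CoA branches were lower in dEx51 in all 5 genes, with median log2 fold changes of -0.50 over the 2 valine genes and -0.54 over the 3 propionyl-CoA genes. Hibadh, which oxidises 3-hydroxyisobutyrate from valine, was at 124, 117 and 123 CPM in dEx51 4, 5 and 6, against 169.9, 179 and 172 CPM in WT 1, 2 and 3 (edgeR log2 fold change -0.52, SE 0.0806, adjusted p = 0.00379). Hibch, the hydrolase before it, was at 39.4, 37.7 and 37.8 CPM in dEx51 4, 5 and 6, against 49.2, 53.4 and 58.0 CPM in WT 1, 2 and 3 (edgeR log2 fold change -0.48, SE 0.0893, adjusted p = 0.00697). Within each group the libraries lay close together for Hibadh, and WT 3 stood highest for Hibch. Pcca, the alpha subunit of propionyl-CoA carboxylase, was at 33.6, 33.5 and 37.4 CPM in dEx51 4, 5 and 6, against 57.0, 61.3 and 50.9 CPM in WT 1, 2 and 3 (edgeR log2 fold change -0.70, SE 0.0992, adjusted p = 0.00268). Pccb, its beta subunit, was at 57.8, 59.9 and 69.3 CPM in dEx51 4, 5 and 6, against 86.1, 87.6 and 78.3 CPM in WT 1, 2 and 3 (edgeR log2 fold change -0.43, SE 0.0996, adjusted p = 0.0156). Mut, methylmalonyl-CoA mutase, whose product is succinyl-CoA, was at 65.7, 65.2 and 80.5 CPM in dEx51 4, 5 and 6, against 91.9, 108 and 107 CPM in WT 1, 2 and 3 (edgeR log2 fold change -0.54, SE 0.116, adjusted p = 0.0119). In all 3 propionyl-CoA genes dEx51 6 was the dEx51 library nearest to WT, and there was no overlap. Pcca was called with all 5 scalings, and the others lost the call with library size as the only scaling, where the 5 genes lay between -0.35 and -0.09. Calls here ended without WT 2, dEx51 4 or dEx51 5 for Pccb (log2 fold change -0.41 to -0.38). The same held without WT 2 or dEx51 5 for Mut (-0.50 to -0.48).

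**Figure D2:**
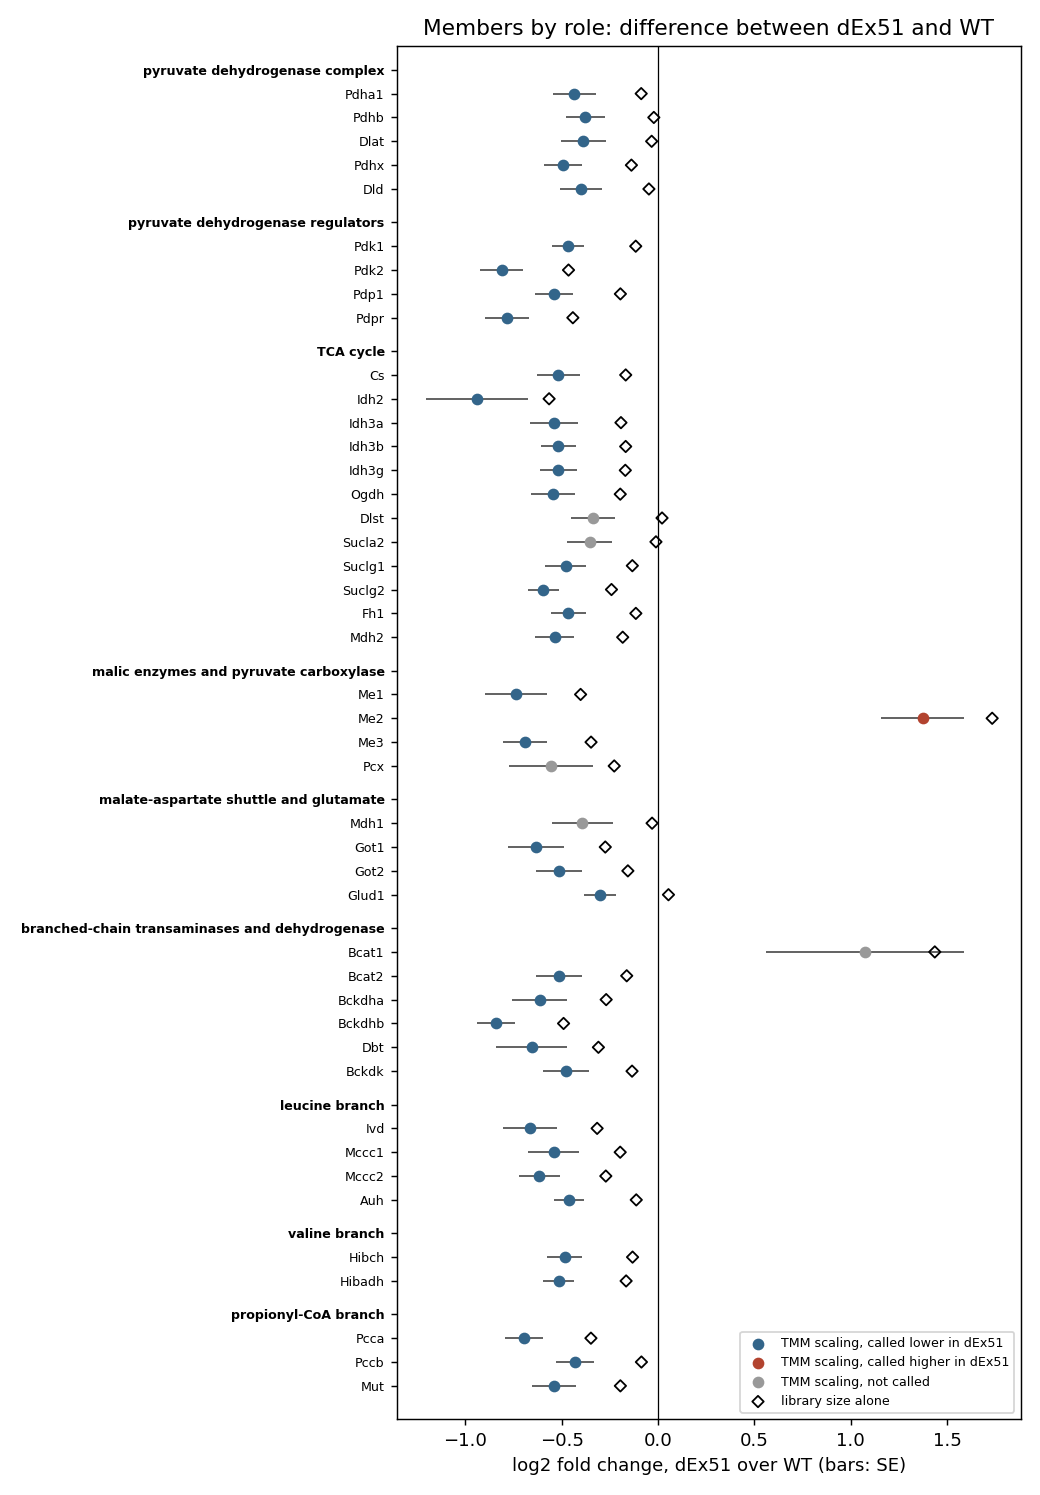
Log2 fold change (dEx51 over WT) of the 44 genes, grouped by role, with TMM scaling (filled points, coloured by call, bars: SE) and with library size as the only scaling (open diamonds). With TMM the values lie between -0.94 and -0.30 except for Me2 at 1.37 and Bcat1 at 1.07 with an SE of 0.515. With library size as the only scaling the median moves to -0.17 and Dlst and Glud1 turn positive.

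**Figure D3:**
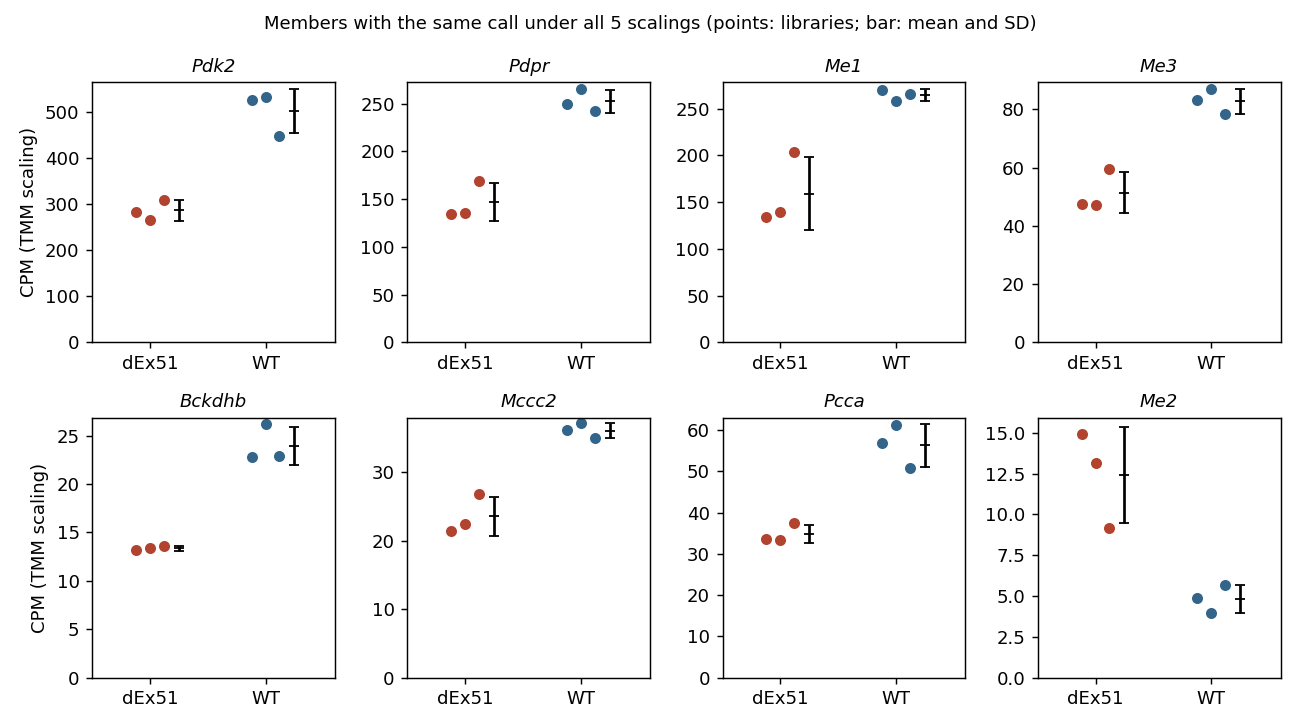
CPM after TMM scaling in each library (points) with mean and SD (n = 3 each) for the 8 genes called in the same direction with all 5 scalings, dEx51 left of WT. Pdk2, Pdpr, Me1, Me3, Bckdhb, Mccc2 and Pcca lie lower and Me2 higher in dEx51, with no overlap between groups.

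Promoter sequence was read for the genes from RefSeq (GRCm38.p6), as windows from 250 bases before to 50 bases after each annotated start. The set of windows used held 39 of the 44 genes. Me2 was among the 5 genes without a window there, which does not show that these genes lack an annotated start. The 250 bases before the start are printed for Pdk2, Bckdhb and Mccc2. These encode a kinase and subunits of a dehydrogenase and a carboxylase, and were among the genes lower with all 5 scalings. Where a gene had several starts, the window nearest the start of the GENCODE M21 gene was taken. Capitals mark CCAAT, read on either strand (ATTGG when on the other strand), a common promoter element that the factor NF-Y binds.
Pdk2, chr11:95041372-95041621, minus strand: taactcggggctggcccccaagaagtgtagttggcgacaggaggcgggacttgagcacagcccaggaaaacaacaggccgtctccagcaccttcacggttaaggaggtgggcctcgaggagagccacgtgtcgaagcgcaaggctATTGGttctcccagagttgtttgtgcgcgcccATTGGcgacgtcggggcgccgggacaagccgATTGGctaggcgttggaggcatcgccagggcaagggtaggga
Bckdhb, chr9:83924887-83925136, plus strand: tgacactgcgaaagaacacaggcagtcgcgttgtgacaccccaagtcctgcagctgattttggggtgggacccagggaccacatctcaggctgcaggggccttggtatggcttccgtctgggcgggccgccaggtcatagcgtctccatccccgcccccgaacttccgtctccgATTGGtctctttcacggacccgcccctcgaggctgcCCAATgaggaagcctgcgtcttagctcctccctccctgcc
Mccc2, chr13:100015640-100015889, minus strand: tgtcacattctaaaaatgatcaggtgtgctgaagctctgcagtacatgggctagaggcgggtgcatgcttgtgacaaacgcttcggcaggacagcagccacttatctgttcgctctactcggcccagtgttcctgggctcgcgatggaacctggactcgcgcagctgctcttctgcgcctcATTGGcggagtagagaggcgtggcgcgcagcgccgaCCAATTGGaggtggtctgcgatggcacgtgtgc

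Pdk2 and Mccc2 carry 3 CCAAT boxes each in these bases and Bckdhb carries 2, all within 105 bases of the start. Of those of Mccc2, 2 overlap in the stretch CCAATTGG, read on opposite strands. The printed genes do not stand for the others that were lower with all 5 scalings. Pdpr and Me3 hold no CCAAT in their windows, and Me1 holds it only in the window of another start. Pcca holds it 44 bases before the start nearest that of its gene. Among the 39 genes with a window 22 (56.4%) hold CCAAT on either strand, and so do 41.1% of the 27025 genes with a window in the set used. The other motifs searched on both strands, none of which contains CCAAT or ATTGG, were rarer. TNAAGGTCA, the site of the estrogen-related receptors, was found for 0 of the 39 genes and for 1.43% of all genes with a window. AAGATGGCG, the site of YY1, was found for Bckdha and Idh3g (5.13%), against 1.64% of them. CCGGAAGT, an ETS site that GABP binds, was found for Dlst (2.56%), against 4.31%, and CGCATGCG, the core of the NRF1 site, for Ogdh and Pccb (5.13%), against 2.07%. For each motif a gene was counted where any of its windows held the letters, so genes with several starts had more windows to match. The CGCATGCG matches of Ogdh lie in windows of later starts, not in the window nearest the GENCODE M21 start. A match of letters is not a bound site, and a window without one says nothing of the factor.

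Levels were compared between genes as CPM per kilobase of exon length. In WT muscle Mdh1 was the most abundant of the 44, at 213 ± 39.0 in dEx51 and 279 ± 33.5 in WT (SD, n = 3 each). Got1, Ogdh, Pdha1, Mdh2 and Idh3a followed, with WT means of 206 to 222, and neighbours among these did not differ beyond their spread. Branched-chain genes were far lower: the 6 genes of the transaminase and dehydrogenase step summed to 62.0 ± 7.44 in dEx51 and 92.1 ± 6.24 in WT, whereas the 12 TCA cycle genes summed to 1045 ± 58.1 in dEx51 and 1493 ± 87.8 in WT. The scarcest were Mccc1, Me2 and Bcat1, with WT means of 3.34, 1.97 and 0.116. In the order of WT means, the gap to the next gene exceeded the pooled SD in 21 of 43 neighbouring pairs. The deposited exon length of Me2 is 2455 bases against 7252 in GENCODE M21, so its length-scaled level is uncertain, while its fold change does not use the length. All 44 genes together summed to 2245 ± 109.5 in dEx51 and 3205 ± 213 in WT, or 70.1% of WT.

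**Figure D4:**
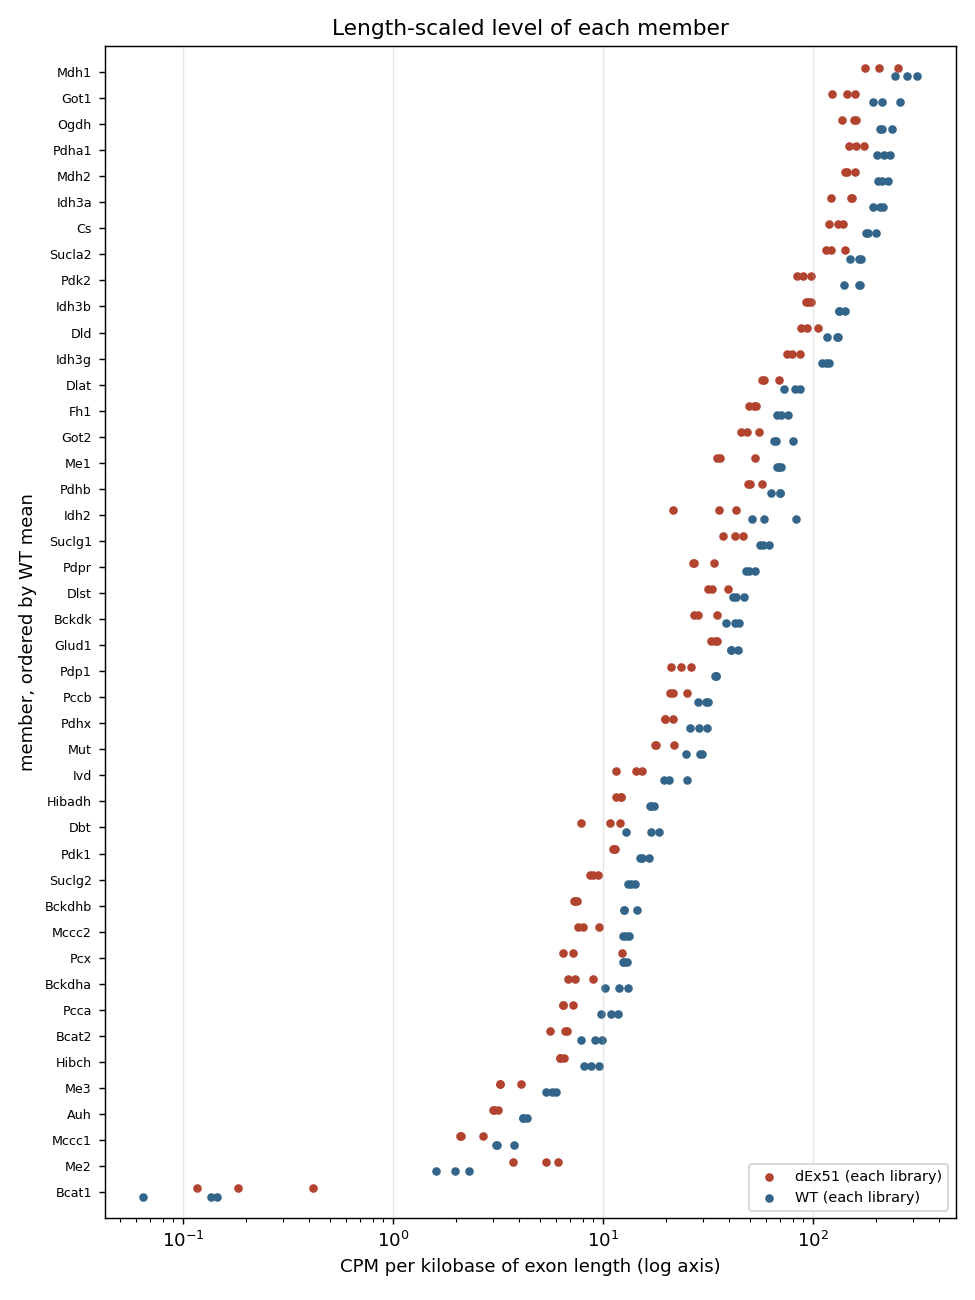
Level of each of the 44 genes as CPM per kilobase of exon length (log axis) in each dEx51 and WT library (points), ordered by the WT mean. Mdh1 leads at 279 in WT and Bcat1 closes at 0.116, and the dEx51 mean is below the WT mean for all genes but Me2 and Bcat1.

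Ratios between enzymes within a library do not depend on library scaling, and 12 pairs that act at one step or regulate it were compared with an exact two-sided permutation test over libraries. With 3 against 3 libraries the smallest p this test can give is 0.1, so no pair could pass, and adjusted over the 12 pairs the p ran from 0.48 to 1. The ratio of Me1 to Me2 was 5.73, 6.74 and 14.1 in dEx51 4, 5 and 6, against 35.2, 41.5 and 29.8 in WT 1, 2 and 3 (difference of log2 ratios -2.11, SE 0.423, exact p = 0.1). The size of this ratio rests on the deposited length of Me2, which is uncertain, while the difference between groups does not use it. The kinase to substrate ratio of Pdk2 to Pdha1 was 0.557, 0.565 and 0.558 in dEx51, against 0.826, 0.719 and 0.644 in WT (difference -0.37, SE 0.104, exact p = 0.1). In these pairs the dEx51 libraries lay under the WT libraries without overlap. The other 10 pairs overlapped. The ratio of Bcat1 to Bcat2 was 0.0751, 0.0281 and 0.0177 in dEx51, against 0.0153, 0.00680 and 0.0190 in WT, spread too widely to separate. Suclg2 to Sucla2, the GTP against the ATP form of succinyl-CoA ligase, had a ratio of 0.0709, 0.0829 and 0.0632 in dEx51, against 0.0876, 0.0861 and 0.0803 in WT, with dEx51 5 inside the WT range.

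**Figure D5:**
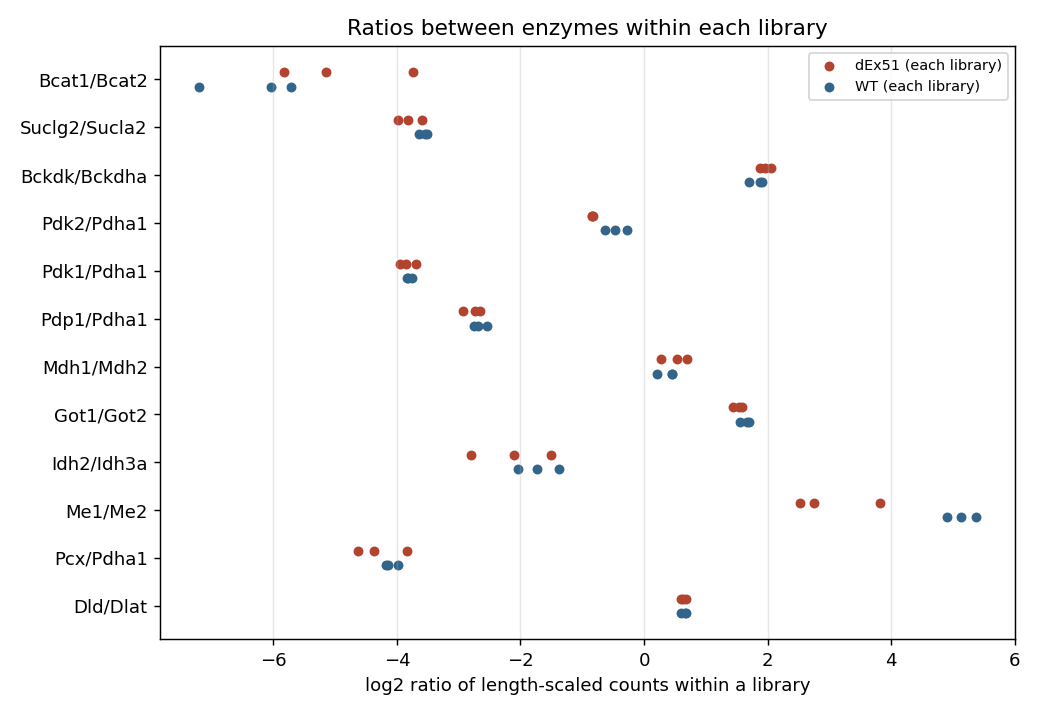
Log2 ratio of length-scaled counts for 12 enzyme pairs (rows) in each dEx51 and WT library (points). Me1 to Me2 and Pdk2 to Pdha1 are lower in all dEx51 libraries than in any WT library (exact p = 0.1, the smallest possible), and the other 10 pairs overlap.

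Genes of the same pathways outside the 44 were described from textbook lists. Of 25 other TCA cycle and pyruvate genes 6 were lower and 1, Pdk3, was higher, with a median log2 fold change of -0.26 that turned to 0.09 with library size as the only scaling. Over all genes tested 11.9% were lower and 16.1% higher. Without WT 2 the count of lower genes was 3, with 4.49% of all genes lower, and without dEx51 5 it was 4, with 5.21%. Mpc1 and Mpc2, which together form the carrier that brings pyruvate into mitochondria, were lower: Mpc1 was at 90.3, 78.3 and 80.9 CPM in the dEx51 libraries, against 127, 141 and 134 CPM in the WT libraries (edgeR log2 fold change -0.69, SE 0.0926, adjusted p = 0.00220). Mpc2 was at 131, 123 and 124 CPM in the dEx51 libraries, against 186, 199 and 176 CPM in the WT libraries (edgeR log2 fold change -0.57, SE 0.0878, adjusted p = 0.00347). Neither had overlapping groups, and Mpc1 held its call in all 19 alternatives. Sdhb, the iron-sulfur subunit of succinate dehydrogenase, was lower too (edgeR log2 fold change -0.51, SE 0.0993, adjusted p = 0.00821). Mpc2 and Sdhb lost the call with library size as the only scaling, at -0.22 and -0.16.

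Of 21 other genes of branched-chain breakdown 12 were lower and 1 was higher, with a median log2 fold change of -0.35 (-0.0027 with library size as the only scaling). These counts stand beside 11.9% lower and 16.1% higher over all genes tested. The lower genes numbered 5 without WT 2, 7 without dEx51 4, 7 without dEx51 5 and 8 without WT 3. In these fits 4.49, 6.8, 5.21 and 8.37% of all genes were lower. Ppm1k, the phosphatase that activates the branched-chain ketoacid dehydrogenase, was at 21.5, 23.5 and 24.6 CPM in the dEx51 libraries, against 37.1, 52.2 and 49.1 CPM in the WT libraries (edgeR log2 fold change -0.99, SE 0.137, adjusted p = 0.00238). As with pyruvate dehydrogenase, the kinase (Bckdk) and the phosphatase of the complex were both lower, each without overlap. Acat1, the thiolase that ends the isoleucine branch, and Hadhb, a subunit of the trifunctional protein, were lower in dEx51 (log2 fold changes -0.64 and -0.60), and both lost the call with library size as the only scaling (-0.29 and -0.24). Slc7a5, a plasma membrane importer of branched-chain and aromatic amino acids, was higher in dEx51, at 7.70, 9.45 and 3.17 CPM in the dEx51 libraries, against 2.55, 1.59 and 2.29 CPM in the WT libraries (edgeR log2 fold change 1.67, SE 0.399, adjusted p = 0.0177). The dEx51 6 value of Slc7a5 was the nearest to WT. The call was lost without WT 2, WT 3, dEx51 4 or dEx51 5 (log2 fold change 1.37 to 1.71).

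Of 10 tested genes of the shuttle and of glutamate use, from 11 listed, 3 were lower, with a median log2 fold change of -0.38 (-0.04 with library size as the only scaling). The share of lower genes over all genes tested was 11.9%. Slc25a12, the aspartate-glutamate carrier of muscle mitochondria, was at 414, 388 and 443 CPM in the dEx51 libraries, against 660.3, 716 and 657 CPM in the WT libraries (edgeR log2 fold change -0.71, SE 0.101, adjusted p = 0.00267). Slc25a11, the 2-oxoglutarate carrier, was lower (edgeR log2 fold change -0.57, SE 0.114, adjusted p = 0.00895), with the call lost at -0.22 with library size as the only scaling. Slc1a5, a glutamine importer, was at 20.6, 28.7 and 23.5 CPM in the dEx51 libraries, against 15.3, 20.8 and 19.98 CPM in the WT libraries and did not pass the test (edgeR log2 fold change 0.38, SE 0.160, adjusted p = 0.113).

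Among 13 genes listed as regulators from textbook knowledge, 6 were lower and 2 higher. Their median log2 fold change was -0.43 (-0.07 with library size as the only scaling). Whether they act on the genes described here was not tested. The shares over all genes tested were 11.9% lower and 16.1% higher. Lower regulators numbered 3 without WT 2 and 3 without dEx51 5, where 4.49 and 5.21% of all genes were lower. Esrra and Esrrg, nuclear receptors that drive mitochondrial genes in muscle, were lower: Esrra was at 51.3, 45.8 and 47.3 CPM in the dEx51 libraries, against 91.7, 84.3 and 72.0 CPM in the WT libraries (edgeR log2 fold change -0.78, SE 0.109, adjusted p = 0.00245). Esrrg was at 29.6, 19.8 and 17.4 CPM in the dEx51 libraries, against 47.3, 48.6 and 42.8 CPM in the WT libraries (edgeR log2 fold change -1.05, SE 0.186, adjusted p = 0.00600). Ppara, the fatty acid receptor, was at 11.2, 11.55 and 11.01 CPM in the dEx51 libraries, against 16.5, 29.4 and 25.3 CPM in the WT libraries (edgeR log2 fold change -1.08, SE 0.196, adjusted p = 0.00661). For all 3 receptors the dEx51 libraries lay under the WT libraries, and the calls held in all 19 alternatives. Myc, a growth factor-induced transcription factor, was higher, at 11.6, 9.23 and 7.11 CPM in the dEx51 libraries, against 3.38, 5.10 and 5.51 CPM in the WT libraries (edgeR log2 fold change 1.01, SE 0.239, adjusted p = 0.0173). Its call ended without WT 2 or dEx51 4 (log2 fold change 0.82 to 1.07). Klf15, which in mice drives branched-chain amino acid breakdown in muscle, overlapped between groups and did not pass the test (edgeR log2 fold change -0.75, SE 0.332, adjusted p = 0.126).

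Other energy pathways were set beside the 44 genes by their counts, and the difference between lists was not tested. Over all genes tested the shares were 11.9% lower and 16.1% higher. Of 24 tested subunits of oxidative phosphorylation 21 were lower, with a median log2 fold change of -0.43 (-0.07 with library size as the only scaling). Of 19 genes of fatty acid oxidation 16 were lower, with a median of -0.56 (-0.19 with library size as the only scaling). Without WT 2 the counts of these 2 lists were 6 and 8, with 4.49% of all genes lower. Without dEx51 5 they were 8 and 13, with 5.21% of all genes lower. In glycolysis 1 of 14 genes was lower, Hk2 (edgeR log2 fold change -0.67, SE 0.130, adjusted p = 0.00842), and 1 was higher, Pgm1 (edgeR log2 fold change 0.88, SE 0.160, adjusted p = 0.00655). The glycolysis median was -0.26 and turned to 0.09 with library size as the only scaling. Without dEx51 6, 7 glycolysis genes were lower, with 14.6% of all genes lower. Cox6a2, the muscle isoform of a cytochrome c oxidase subunit, had the smallest adjusted p of the oxidative phosphorylation subunits (edgeR log2 fold change -0.86, SE 0.146, adjusted p = 0.00521). Acadm, medium-chain acyl-CoA dehydrogenase, had the smallest among the fatty acid oxidation genes (edgeR log2 fold change -0.71, SE 0.101, adjusted p = 0.00276). Hadha, Hadhb and Echs1 stand in the branched-chain and the fatty acid lists. In the authors' deposited table of the same comparison, 42 of the 44 genes were lower and 1 was higher at their adjusted p under 0.05, and 38 of those lower there were lower in the test used here, with 0 called in opposite directions. The shares of all genes lower and higher in that table were not counted, so its counts have no background beside them.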

How the data were processed

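Stranded mRNA libraries of whole TA muscle were sequenced, and the build was GRCm38 (mm10), with edgeR 3.30.1, featureCounts 1.6.0 and FastQC 0.11.4 named as tools, per the submitters' processing notes. No source used here gives the aligner or the strand setting. The authors deposited raw read counts for 54232 genes, with exon lengths. The authors also deposited RPKM values, which lie above 0 in 140 places where the count is 0, and a table of the comparison with log2 fold changes and log2 CPM, a likelihood-ratio score, p-values and their −log10, per the file headers.

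Counts were tested in edgeR 4.0.16 (R 4.3.3) by its quasi-likelihood F-test, with TMM scaling and the default expression filter, and p-values were adjusted by Benjamini-Hochberg over the 14335 genes that passed. Calls were made at an adjusted p under 0.05. Tests were two-sided, and the SE was taken from the F statistic. CPM are TMM-scaled. The common biological coefficient of variation was 0.155. Replicate pairs differed by more than sampling noise (chi-square per degree of freedom 8.81 to 47.6). The script was tested on simulated data. GENCODE M21 exon lengths equalled the deposited ones for 41 of the 44 genes, and exons of 13 overlap a gene on the opposite strand.

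Members and lists were chosen with earlier results of these data known. Per-library values are given, in each role, for up to 4 genes of smallest adjusted p and any gene called against its role's median, and the other members are given in 1 value or by range. Of each other list, up to 4 genes of smallest adjusted p are named, 3 in the direction of its median and 1 in the other. Genes named outside this rule are said to be, and some that the rule gives are not reported here. Cell type lists are given by counts and sums. Alternatives were 4 other scalings, 2 other filters, DESeq2 1.42.0, limma-voom (limma 3.58.1), a robust fit, a replicate block, a threshold of 0.01, log2 of RPKM plus 0.1 or 1, ratios from counts plus 1, and each library left out.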

Additional observations from a re-analysis of the deposited data

How the results depend on the processing

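The count of 38 genes lower in dEx51 held at 38 to 40 with DESeq2 size factors, upper quartile scaling, TMM without the mitochondrial genome, either other filter, DESeq2, limma-voom and the robust fit. In these, 11.7 to 12.6% of all genes were lower, or 6.22% without any filter. The count was 7 with library size as the only scaling and 7 with log2 of RPKM plus 0.1 or plus 1, where the median was -0.17, -0.17 and -0.16 and 2.33, 2.21 and 2.21% of all genes were lower. It was 17 at an adjusted p under 0.01, where 3.52% of all genes were lower. RPKM carry library size as their scaling, which is how these alternatives are built. Without any filter 2 genes were higher instead of 1, Bcat1 being the one added. Leaving out each library in turn gave 19 to 39 lower genes, 1 higher gene and medians of -0.55 to -0.47. Over all genes 4.49 to 14.6% were lower and 9.12 to 18% higher in these fits. The replicate block left 38 lower genes and 1 higher gene, losing Dlat and gaining Pcx, and moved the count over all genes to 1960 lower and 2508 higher. The block used the number of the biological replicate in the labels' description, which sets dEx51 4 with WT 1, dEx51 5 with WT 2 and dEx51 6 with WT 3. Deviations from the group means correlated at 0.35, -0.01 and 0.06 within these pairs, and at -0.22 to 0.15 between libraries of unlike number. Only dEx51 4 with WT 1 stood above that range, so the numbers were not taken as pairing the samples. Whether dEx51 4 and WT 1 shared a factor was not tested. Log2 fold changes turned positive with library size alone and with RPKM plus 0.1 and plus 1 for Dlst (0.021, 0.0084 and 0.0085) and Glud1 (0.055, 0.050 and 0.049), and both genes kept their sign in the other alternatives. Differences of log2 ratio changed sign near 0 for Pdk1 to Pdha1 without dEx51 6 (0.027, range with each library left out -0.10 to 0.03) and for Dld to Dlat without WT 1 (0.0027) or dEx51 4 (0.0041; lowest -0.038). The genes called in all 19 alternatives were Pdk2, Pdpr, Me3, Bckdhb, Mccc2 and Pcca as lower and Me2 as higher. The depth behind the scarcest of the 44 genes, Bcat1, was 11 to 91 reads a library.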
